A study of Mus musculus with 6 samples.

Results

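Cathepsins are the peptide-cutting enzymes of endosomes and lysosomes. The genes described here are the 10 cathepsins Ctsa, Ctsb, Ctsc, Ctsd, Ctse, Ctsh, Ctsk, Ctsl, Ctss and Ctsz, taken by symbol from the 36706 genes of the deposited tables. Each symbol matched 1 row, and all 10 passed the filter on low counts that left 14011 genes for testing. In cells given 4-octyl itaconate (4-OI) on top of interferon gamma (IFN-γ), transcripts of Ctsk, Ctsl, Ctsd and Ctsb rose and those of Ctsh fell. Ctsz was also called higher, but close to the threshold, and this call was lost in 7 of 15 alternative fits. Ctsa, Ctsc, Ctse and Ctss did not pass the test. Among cathepsin transcripts, Ctsd went from 36.6% ± 0.610 to 47.7% ± 1.01 of the summed TPM of the 10 genes and Ctss from 33.9% ± 0.478 to 23.0% ± 1.37 (mean ± SD, n = 3 libraries a group).

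The RNA came from wild-type mouse bone marrow cells cultured with 20 ng/mL GM-CSF, a cytokine that drives marrow precursors towards dendritic cells and macrophages. All 6 libraries are from cells given IFN-γ, the cytokine of activated T and NK cells. In 3 of them the cells received no further agent, and in 3 they also received 4-OI, a cell-permeable ester of the mitochondrial metabolite itaconate. The labels give no dose, duration, age or number of animals, no group without IFN-γ or with 4-OI alone is analysed here, and the titles call the cells macrophages where the cell type label says dendritic cells.

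Most cathepsins belong to the papain-like cysteine proteases (Ctsb, Ctsc, Ctsh, Ctsk, Ctsl, Ctss and Ctsz), while Ctsd and Ctse are aspartic proteases and Ctsa is a serine carboxypeptidase. They are made as inactive precursors, sorted to endosomes and activated in acid. In antigen-presenting cells they cut ingested protein into peptides for MHC class II molecules and degrade the invariant chain that blocks the peptide groove, the last step of which is done by cathepsin S in dendritic cells. Cystatins and stefins are their natural inhibitors.

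Total counts were 19656368 to 29244717 per library. IFN-γ replicate 1 lay apart from the other libraries of its group on the second principal component (32.0 against -19.1 and -16.8), and so did 4-OI replicate 3 (-14.4 against 12.4 and 5.84). The factors that scale libraries by the trimmed mean of M-values (TMM) were 1.07 to 1.13 with IFN-γ and 0.861 to 0.945 with 4-OI, so the CPM, counts scaled to library size, with these factors and values relative to all transcripts, such as the deposited TPM, give different directions for genes with small changes. Dividing by total counts alone moved the median log2 fold change of all tested genes from -0.01 to -0.27. Of the markers of conventional dendritic cells, 10 of 13 tested fell and 1, Clec9a, rose, and their summed level was 1706 to 1764 CPM with IFN-γ and 1219 to 1242 CPM with 4-OI. Itgax, Flt3 and Zbtb46 were present at 514, 16.2 and 15.5 CPM in the IFN-γ group, while Cd209a, at 0.0650 CPM, rested on 5 counts. Macrophage markers rose in 2 of 12 cases (Adgre1 and Csf1r) and fell in 3, with a median log2 fold change of -0.32. Over all tested genes 22.7% were called higher and 25.4% lower, and the macrophage counts lie near these shares. The same shares belong beside every marker count given here and below. The summed level of the macrophage markers was 2165 to 2229.6 CPM with IFN-γ and 2748 to 2877 CPM with 4-OI, and no read of Cd163 or Timd4 was counted. In a bulk sample, fewer cells of a type and less RNA per cell cannot be told apart.

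The 250 bases before the transcription start are shown for the members on which the results turn: Ctsd and Ctss, whose shares changed most, and Ctsk, with the largest rise. The sequences are RefSeq's on GRCm38.p6, which held entries for 7 of the 10 genes. The entry for Ctsl lies within the gene's own RefSeq span, downstream of its outermost start, and is not shown. Capitals mark matches, on either strand, to any of 5 motifs: the E-box CACGTG that MiT/TFE factors of lysosomal genes and other factors bind, its longer form GTCACGTG, the interferon-stimulated element (GAAA, any 2 bases, GAAA), the gamma-activated site TTCNNNGAA and the antioxidant element TGACNNNGC. The longer E-box contains the shorter.
Ctsd promoter, chr7:142387828-142388077, minus strand: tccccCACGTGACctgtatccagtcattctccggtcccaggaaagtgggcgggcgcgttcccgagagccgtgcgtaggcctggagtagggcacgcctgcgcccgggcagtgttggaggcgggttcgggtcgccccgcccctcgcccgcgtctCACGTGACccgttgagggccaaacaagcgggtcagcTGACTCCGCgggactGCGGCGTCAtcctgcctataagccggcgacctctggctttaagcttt
Ctss promoter, chr3:95526536-95526785, plus strand: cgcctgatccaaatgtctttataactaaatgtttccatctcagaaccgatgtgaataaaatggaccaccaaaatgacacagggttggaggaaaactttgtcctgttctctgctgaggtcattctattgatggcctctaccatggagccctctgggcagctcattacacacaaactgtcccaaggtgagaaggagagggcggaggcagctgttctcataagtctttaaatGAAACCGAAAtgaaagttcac
Ctsk promoter, chr3:95498960-95499209, plus strand: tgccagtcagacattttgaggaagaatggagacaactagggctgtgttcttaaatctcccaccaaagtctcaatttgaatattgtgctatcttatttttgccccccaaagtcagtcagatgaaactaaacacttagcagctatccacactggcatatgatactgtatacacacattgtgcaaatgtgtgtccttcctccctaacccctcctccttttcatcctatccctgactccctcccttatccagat

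The Ctsd sequence held CACGTG at bases 245 to 240 and 98 to 93 before the start, both within the longer form, and 2 matches to TGACNNNGC. Ctss held no CACGTG but an interferon-stimulated match at bases 21 to 12, and Ctsk held none of the motifs. The longer E-box was not particular to Ctsd. Among sequences not shown, the more downstream entry for Ctsa, which did not pass the test, held GTCACGTG at bases 14 to 7. Like that for Ctsl, this entry lies within the gene's own RefSeq span. The upstream entry for Ctsa held none of the motifs. Ctsz held a match to TGACNNNGC, Ctsc a match to TTCNNNGAA, and the Ctsl entry set aside above held CACGTG. Over all 32851 RefSeq promoters of this length, CACGTG was found in 6.02%, GTCACGTG in 1.85%, the interferon-stimulated element in 2.98%, TTCNNNGAA in 7.02% and TGACNNNGC in 10.2%. These matches describe the letters and do not show binding, and the listed starts may not be those used in these cells.

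Of the 10 cathepsins, 5 were called higher and 1 lower with 4-OI by edgeR's quasi-likelihood test at a Benjamini-Hochberg adjusted p of 0.05. Of all 14011 genes tested, 22.7% were called higher and 25.4% lower, 48.1% in all. The median log2 fold change of the members was 0.27, and that of all genes was -0.01. TMM-scaled CPM of both groups did not overlap for 7 members, against 59.5% of all genes. No label says that replicates came from separate cultures, so the p-values reflect only how these libraries vary, which may be technical.

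**Figure D1:**
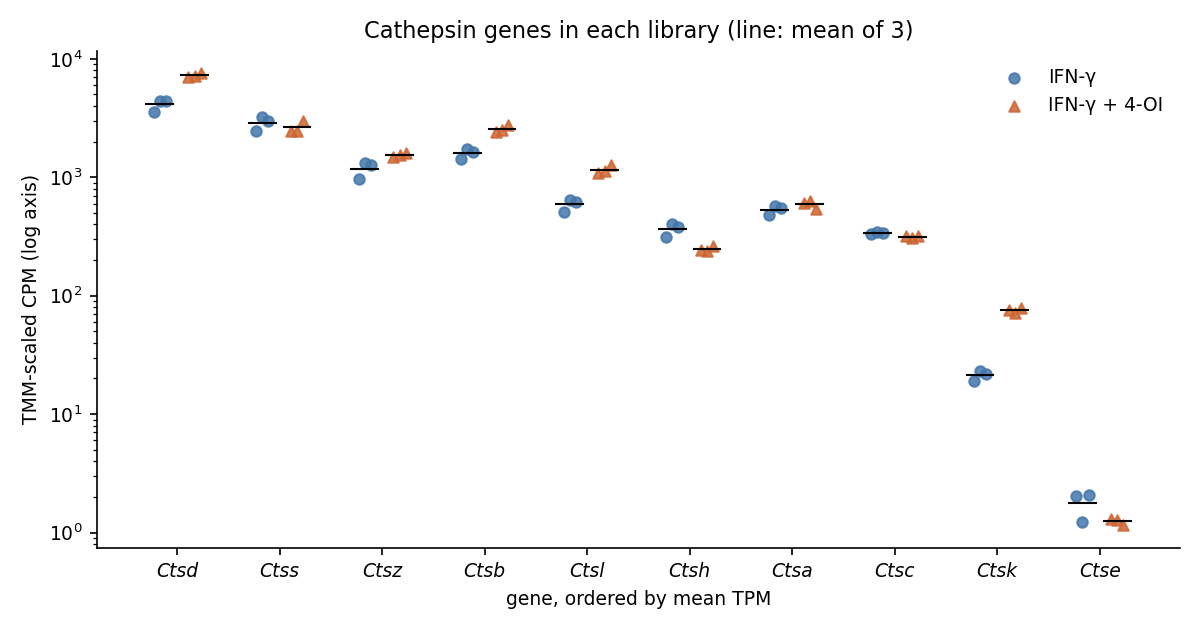
TMM-scaled CPM (log axis) of the 10 cathepsin genes in the 6 libraries, ordered by mean TPM, with circles for IFN-γ, triangles for IFN-γ with 4-OI and lines at the mean of 3 libraries. The triangles of Ctsk, Ctsl, Ctsd and Ctsb lie above all circles of the same gene, those of Ctsh lie below, and those of Ctss overlap them.

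Ctsd encodes the main aspartic protease of lysosomes, which opens up folded antigens and also cuts other enzyme precursors. Its level was 3569, 4425 and 4380.2 CPM in IFN-γ replicates 1 to 3 and 7037, 7152 and 7540.3 CPM in the 4-OI replicates. Every library with 4-OI stood above every library without it, and IFN-γ replicate 1 was the lowest. The fitted change was 1.76-fold higher (log2 fold change 0.81 ± 0.12, SE; edgeR adjusted p = 9.94e-04). Ctsd lies on chromosome 7, 141929647 to 141941564, minus strand, in the coordinates of the deposited tables. For most genes these do not match RefSeq's positions on GRCm38 (mm10), the build that the submitters' notes name.

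The other aspartic member, Ctse, an endosomal enzyme that is scarce in most cells, was counted at 2.02, 1.22 and 2.08 CPM with IFN-γ and 1.30, 1.27 and 1.15 CPM with 4-OI. It rested on 136 counts over the IFN-γ libraries and 87 over the 4-OI libraries. Its groups overlapped, with a log2 fold change of -0.51 (95% interval -1.09 to 0.08; edgeR adjusted p = 0.135). The fit without IFN-γ replicate 2, the lowest of its group, called it lower (log2 fold change -0.71; edgeR adjusted p = 0.0337), and so did total-count scaling (-0.77; edgeR adjusted p = 0.0423).

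Among the cysteine cathepsins, Ctsl encodes a broad endopeptidase that trims the invariant chain in thymic epithelium and matures other lysosomal enzymes in many cells. It was at 506, 644 and 623 CPM with IFN-γ and 1096, 1126 and 1266 CPM with 4-OI, with no overlap. The rise was 1.97-fold (log2 fold change 0.98 ± 0.12, SE; edgeR adjusted p = 3.67e-04). The gene lies on chromosome 13, 64509704 to 64518586, minus strand.

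Ctsb, an abundant enzyme with both endopeptidase and peptidyl-dipeptidase activity, was at 1430.0, 1729 and 1643 CPM with IFN-γ. With 4-OI it was at 2403, 2498 and 2777 CPM, above every IFN-γ library and 1.60-fold higher in the fit (log2 fold change 0.68 ± 0.11, SE; edgeR adjusted p = 0.00184). On chromosome 14 it spans 63359911 to 63383372, plus strand, and it shares 16.3% of its exon bases with Fdft1 on the opposite strand. Fdft1 had on average 1448 counts a library with IFN-γ and 1008 with 4-OI, and whether counting used strand is not given in the sources used here.

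Ctsk, best known as the collagen-degrading protease of osteoclasts, showed the largest change of the family from a low level. Its values were 19.1, 23.2 and 22.0 CPM with IFN-γ and 76.0, 71.5 and 78.6 CPM with 4-OI, a rise of 3.52-fold (log2 fold change 1.81 ± 0.10, SE; edgeR adjusted p = 7.21e-06). Of 8 tested osteoclast markers, 2 rose, Itgb3 and Atp6v0d2, and 6 fell, among them Acp5, Dcstamp, Nfatc1 and Tnfrsf11a. Their median log2 fold change was -0.63, although the marker list summed to 611 to 679 CPM with IFN-γ and 1022 to 1082 CPM with 4-OI. The sum thus does not stand for most of its genes, and Atp6v0d2 is also on the proton pump list below. Calcr, the calcitonin receptor, had 0 counts over the IFN-γ libraries and 1 count over the 4-OI libraries. The part of osteoclast-like cells in the Ctsk change was not tested. Stromal markers, since fibroblasts also transcribe Ctsk, summed to 41.3 CPM in IFN-γ replicate 1, 4.11 and 4.67 CPM in replicates 2 and 3, and 1.56 to 2.22 CPM with 4-OI. Their part in the Ctsk change was not tested.

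Ctsz, a carboxypeptidase, was at 973, 1321 and 1258 CPM with IFN-γ and 1477, 1531 and 1610.1 CPM with 4-OI. The groups did not overlap, but the rise of 1.30-fold was close to the threshold (log2 fold change 0.38 ± 0.13, SE; edgeR adjusted p = 0.0433). The call was lost with upper quartile factors, with all counted genes kept, and when IFN-γ replicate 3 or any 4-OI replicate was left out (edgeR adjusted p = 0.0516 to 0.117). With total-count scaling the log2 fold change was 0.12 (edgeR adjusted p = 0.384).

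Ctsh, an aminopeptidase of endosomes, was the member that fell. It was at 313, 399.6 and 378 CPM with IFN-γ and 245, 240.1 and 265 CPM with 4-OI, with no overlap and a fitted level 1.45-fold lower (log2 fold change -0.54 ± 0.11, SE; edgeR adjusted p = 0.00446). The gene lies on chromosome 9, 89936320 to 89958148, plus strand. Most dendritic cell markers, whose summed values are given above, were also lower. Of 9 monocyte markers 6 fell and 1, Treml4, rose (median log2 fold change -1.36). Their summed levels overlapped, at 5713 to 7102 CPM with IFN-γ and 5234 to 6350.2 CPM with 4-OI. Mast cell and basophil markers fell in 7 of 7 tested cases, and neutrophil markers in 9 of 14, with 2 higher. Macrophage markers fell in 3 and rose in 2 of 12 cases, near the shares of all tested genes (25.4% lower and 22.7% higher). The part of any of these cells in the Ctsh change was not tested.

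Ctss, the cathepsin most closely tied to class II presentation, was at 2456, 3209.9 and 3011 CPM with IFN-γ and 2461, 2467 and 3005 CPM with 4-OI. The groups overlapped, and the log2 fold change was -0.13 (95% interval -0.45 to 0.19; edgeR adjusted p = 0.480). This answer depended on the scaling and on the libraries used. With total counts alone Ctss was called lower (log2 fold change -0.39; edgeR adjusted p = 0.0167). With TMM factors it was called lower once IFN-γ replicate 1 and 4-OI replicate 3 were left out together (-0.34; edgeR adjusted p = 1.55e-07). That fit dropped the library that lay apart in each group, so its p-values rest on fewer and more alike libraries. It called 9296 genes, against 6736 in the main fit, and the same limit holds wherever it is named below. In deposited TPM the groups did not overlap, at 4438, 4698 and 4562 in the IFN-γ libraries, against 3156, 3171 and 3290.1 in the 4-OI libraries.

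Ctss and Ctsk lie near each other on chromosome 3 on the plus strand, Ctsk at 95406521 to 95416698 and Ctss at 95434097 to 95463716, with 17398 bases between them, a gap that 1 other gene, Gm40096, touches. Their changes were unlike: within a library, the TPM of Ctsk per TPM of Ctss was 0.00711, 0.00662 and 0.00669 in the IFN-γ libraries, against 0.0283, 0.0266 and 0.0240 in the 4-OI libraries. Such a ratio does not depend on how libraries are scaled to each other.

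Ctsc encodes the dipeptidyl peptidase that activates the serine proteases of neutrophil, mast cell and cytotoxic granules. It was at 329.6, 343 and 339 CPM with IFN-γ and 322, 307 and 319 CPM with 4-OI. These ranges did not overlap, yet the difference was small (log2 fold change -0.093, 95% interval -0.27 to 0.081; edgeR adjusted p = 0.342). With total-count scaling it was called lower (-0.35; edgeR adjusted p = 0.00562), as it was without IFN-γ replicate 1 and 4-OI replicate 3 (-0.12; edgeR adjusted p = 0.0234).

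Ctsa encodes a carboxypeptidase that also holds neuraminidase 1 and beta-galactosidase in a protective complex. It was at 476, 568 and 549 CPM with IFN-γ and 612, 629 and 545 CPM with 4-OI, and 4-OI replicate 3 fell within the IFN-γ range. The log2 fold change was 0.16 (95% interval -0.078 to 0.41; edgeR adjusted p = 0.233). It was 0.15 without IFN-γ replicate 1 and 4-OI replicate 3, where the gene passed (edgeR adjusted p = 0.00504), and -0.089 with total-count scaling (edgeR adjusted p = 0.530). Ctsa shares 13.5% of its exon bases with Pltp and 8.84% with Neurl2, both on the opposite strand.

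**Figure D2:**
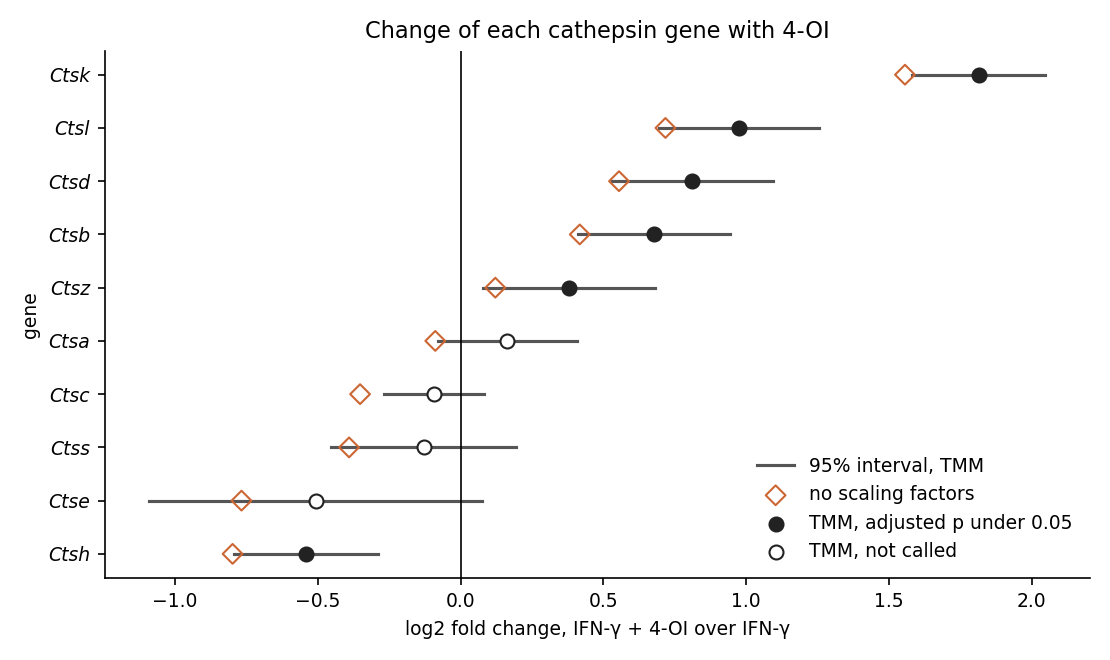
Log2 fold change of each cathepsin gene with 4-OI under TMM scaling (circles, filled where the edgeR adjusted p is under 0.05, with 95% intervals) and with no scaling factors (open diamonds). Ctsk, Ctsl, Ctsd and Ctsb lie above 0 and Ctsh below 0 under both, while the diamonds of Ctsz and Ctsa sit near 0 and that of Ctss at -0.39.

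Calls for Ctsk, Ctsl, Ctsd and Ctsb as higher and for Ctsh as lower held in each of the 15 alternative fits, which changed the scaling, filter, test, block and libraries. IFN-γ replicate 1 had the lowest TMM-scaled CPM of its group for 9 of the 10 genes, all but Ctse. In TPM it was lowest for 5 and highest for 5. Without that library the log2 fold changes were 0.71 for Ctsd, 0.87 for Ctsl, 0.60 for Ctsb, 1.73 for Ctsk and -0.64 for Ctsh.

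Levels of different genes are compared per length, in TPM. In deposited TPM with IFN-γ, Ctsd came first at 4933 ± 75.7 and Ctss second at 4566 ± 130.1 (SD, n = 3), a ratio of 1.08 with no overlap of their ranges. Ctsz followed at 1879 ± 94.5, then Ctsb at 775 ± 14.6, Ctsh at 499 ± 8.74, Ctsl at 378 ± 6.81 and Ctsa at 332 ± 6.39. Ctsc at 69.8 ± 6.66, Ctsk at 31.1 ± 0.529 and Ctse at 1.96 ± 0.658 were the scarcest. No neighbours in this order overlapped, and each gene stood above the next in every IFN-γ library.

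With 4-OI the first 4 places were the same, with Ctsd at 6675 ± 378, Ctss at 3206 ± 73.4, Ctsz at 1888 ± 105 and Ctsb at 951 ± 27.2 TPM. Ctsl, at 573 ± 12.8, had passed Ctsh, at 264 ± 11.2, and Ctsk, at 84.1 ± 5.20, had passed Ctsc, at 50.1 ± 4.23. Ctsa, at 288 ± 45.8, and Ctsh were the neighbours whose ranges overlapped. The TPM rest on exon lengths of 1440 to 11154 bases as deposited, the longest being that of Ctsc, so the order depends on the annotation.

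The summed TPM of the 10 genes was 13191, 13634 and 13569 in the IFN-γ libraries, against 14129, 14399 and 13413 in the 4-OI libraries. The groups overlapped (exact two-sided permutation test, p = 0.30, n = 3 a group), and cathepsins as a whole took 1.32% to 1.44% of all TPM in every library. In TMM-scaled CPM the sum went from 11648 ± 1383 to 16387 ± 895, with no overlap (exact permutation p = 0.10, the smallest that 3 against 3 can give). The sums differ in weighting by length as well as in scaling.

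Shares within the family do not depend on how libraries are scaled to each other, but they do depend on the weighting by length. Ctsd made up 37.0%, 35.9% and 37.0% of cathepsin TPM with IFN-γ and 48.3%, 48.3% and 46.6% with 4-OI. Ctss made up 33.6%, 34.5% and 33.6% in the IFN-γ libraries, against 22.3%, 22.0% and 24.5% in the 4-OI libraries. Ctsd thus gained 11.1 percentage points where Ctss lost 10.9, and their sum was 70.3% to 71.1% in all 6 libraries.

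The shares of Ctsl, Ctsb and Ctsk were higher with 4-OI, by 1.29, 1.05 and 0.371 percentage points, and by 2.02, 1.84 and 0.276 points where counts replaced TPM. The Ctsh share was lower, at 3.70% ± 0.0319 against 1.89% ± 0.0373. Ctsz held 14.0% ± 0.458 and 13.5% ± 0.266, the member whose groups overlapped. For each of the other 9 the exact two-sided permutation p was 0.10, the smallest possible, and 0.111 after Benjamini-Hochberg adjustment over the 10 shares. Shares sum to 100%, so they are not independent of each other. In deposited TPM, which the shares are made from, 63.7% of all tested genes had groups that did not overlap.

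**Figure D3:**
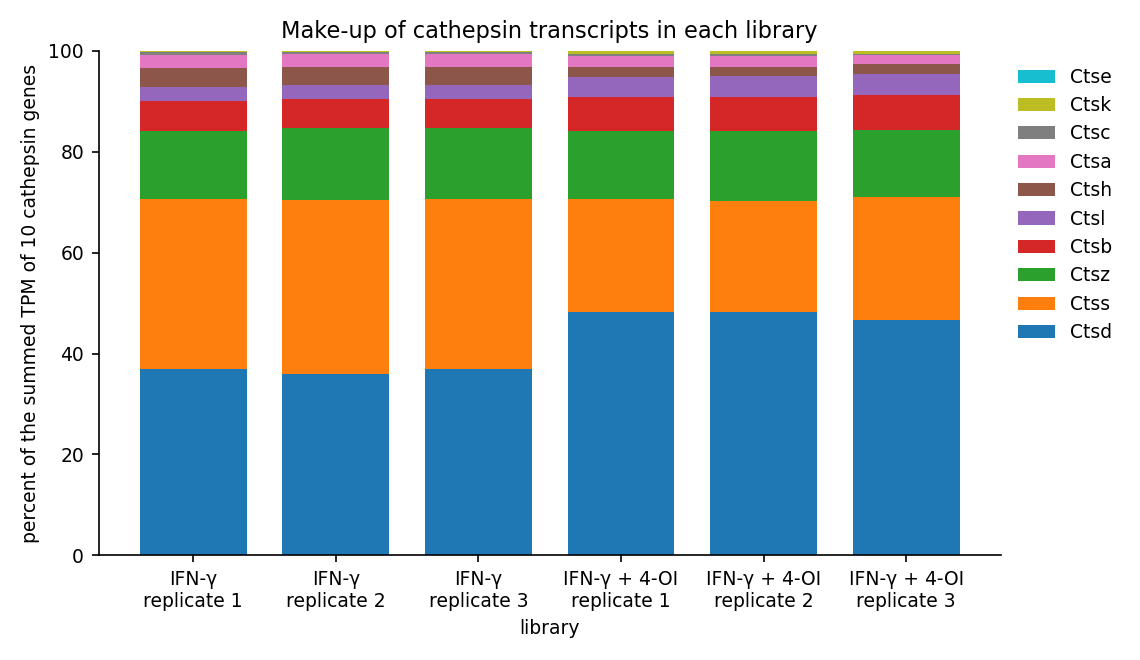
Percent of the summed TPM of the 10 cathepsin genes held by each gene, as 1 stacked bar for each of the 6 libraries. The Ctsd segment grows from 36.6% to 47.7% on average and the Ctss segment shrinks from 33.9% to 23.0%, so that the top of both together stays between 70.3% and 71.1%.

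Ratios within a library show the same shift library by library. The TPM of Ctsd per TPM of Ctss was 1.10, 1.04 and 1.10 in the IFN-γ libraries, against 2.16, 2.19 and 1.90 in the 4-OI libraries. That of Ctsl per Ctsh was 0.756, 0.752 and 0.769 in the IFN-γ libraries, against 2.09, 2.19 and 2.23 in the 4-OI libraries. These pairs were chosen after their values were seen and carry no test. Ctss and Cd74, its main substrate in presentation, had overlapping proportions, with Cd74 at 1.14, 1.05 and 1.02 TPM per TPM of Ctss with IFN-γ and 1.00, 1.05 and 1.04 with 4-OI.

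Inhibitors of the cysteine cathepsins, and genes related to them, changed unequally. Of 13 tested genes of cystatins, stefins and similar proteins, Cstb, Stfa1 and Fetub rose and Cst7 and Ctla2b fell. The list median was -0.13. Of all tested genes, 22.7% were called higher and 25.4% lower, shares that belong beside each list count given below. Not every gene on the list is an inhibitor of cysteine cathepsins. Cstb, the stefin B of cytosol and nucleus, went from 244, 344 and 333 CPM to 764, 779 and 1021 CPM, a 2.79-fold rise (1.48 ± 0.17 on the log2 scale, SE; edgeR adjusted p = 2.52e-04). Cst7, cystatin F, which controls cathepsins C and others inside endosomes, went from 38.8, 51.5 and 52.2 CPM to 14.8, 13.4 and 18.5 CPM, 3.05-fold lower (-1.61 ± 0.16 on the log2 scale, SE; edgeR adjusted p = 1.21e-04). The groups of neither gene overlapped, and the directions were opposite.

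Cst3, the secreted cystatin C, was the most abundant inhibitor, at 1452, 2214 and 2192 CPM with IFN-γ and 1404, 1450.0 and 1549.6 CPM with 4-OI. IFN-γ replicate 1 lay within the 4-OI range, and the gene did not pass (log2 fold change -0.41; edgeR adjusted p = 0.0750). Without that replicate it was called lower (-0.59; edgeR adjusted p = 1.92e-04), as it was with DESeq2 (adjusted p = 0.0429) and with total-count scaling (edgeR adjusted p = 0.00584). Ctla2b, a small protein like a cathepsin propeptide, fell from 12.7 ± 1.64 to 3.58 ± 0.943 CPM. Fetub, a cystatin-like gene of the liver, had 5 counts in the 3 IFN-γ libraries and 121 in the 3 4-OI libraries, and passed as higher (edgeR adjusted p = 1.42e-04). Stefin A genes such as Stfa1 are close copies of each other, so the split of reads among them is uncertain.

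Set against the 7 cysteine cathepsins together, Cst3 stood at 0.600, 0.702 and 0.736 TPM per TPM of enzyme with IFN-γ and 0.469, 0.476 and 0.446 with 4-OI. The log2 ratio differed by -0.55 (exact two-sided permutation p = 0.10, n = 3 a group, the smallest possible). Cstb stood at 0.133, 0.144 and 0.148 in the IFN-γ libraries, against 0.337, 0.338 and 0.388 in the 4-OI libraries, a log2 difference of 1.32 with the same exact p of 0.10. Relative to enzyme message the secreted inhibitor was thus lower and the cytosolic inhibitor higher in every 4-OI library. The enzyme sum, of which Ctss was the largest part, was itself 7970, 8406 and 8220 TPM with IFN-γ and 6991, 7125 and 6932 TPM with 4-OI.

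**Figure D4:**
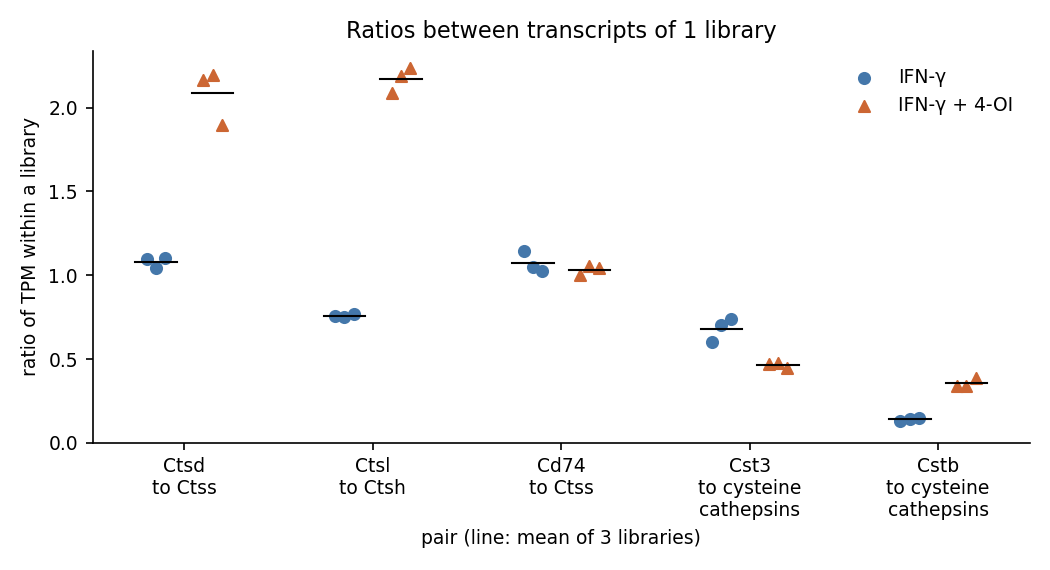
Ratios of TPM within a library for 5 pairs, with circles for IFN-γ, triangles for IFN-γ with 4-OI and lines at the mean of 3 libraries. Ctsd to Ctss, Ctsl to Ctsh and Cstb to cysteine cathepsins are higher with 4-OI, Cst3 to cysteine cathepsins is lower, and Cd74 to Ctss overlaps.

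The endosomal partners of the cathepsins in class II presentation moved mostly the other way from Ctsd and Ctsl. Of 13 tested genes around this step, 9 fell, 1 rose, and 3 did not pass, with a median log2 fold change of -0.77. Those that fell were the class II chains H2-Aa, H2-Ab1 and H2-Eb1, the editors H2-DMa, H2-DMb1, H2-DMb2, H2-Oa and H2-Ob, and Ciita, the class II transactivator. H2-DMa went from 149, 193 and 185 CPM to 63.6, 64.7 and 67.8 CPM (edgeR adjusted p = 3.22e-05), and H2-Ob was 3.56-fold and H2-DMb2 3.20-fold lower. They fell beside the dendritic cell markers given above, whose part was not tested.

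The 3 that did not pass were Cd74, Ifi30 and Lgmn. Cd74, the invariant chain, was at 2736, 3281 and 3011 CPM with IFN-γ and 2407, 2532 and 3062 CPM with 4-OI (log2 fold change -0.17, 95% interval -0.47 to 0.13; edgeR adjusted p = 0.305), and was called lower with total-count scaling (-0.44; edgeR adjusted p = 0.00629) and, with TMM factors, without IFN-γ replicate 1 and 4-OI replicate 3 (-0.35; edgeR adjusted p = 1.49e-07). Ifi30, the reductase that opens disulfide bonds of antigens, was at 116, 167 and 154 CPM and 139, 151 and 175 CPM (edgeR adjusted p = 0.648), and was called lower once IFN-γ replicate 1 and 4-OI replicate 3 were both left out (-0.15; edgeR adjusted p = 0.00748). Lgmn, the asparaginyl endopeptidase that starts invariant chain cleavage, was at 146, 191 and 180.5 CPM and 132, 140.3 and 152 CPM (log2 fold change -0.28; edgeR adjusted p = 0.0755), and passed as lower without IFN-γ replicate 1 (-0.40; edgeR adjusted p = 0.00140) and with total-count scaling (-0.54; edgeR adjusted p = 0.00267). Groups overlapped for all of these. The gene that rose was Sppl2a, the membrane protease that clears the remaining invariant chain stub, which was 1.36-fold higher (edgeR adjusted p = 0.00345). Ifi30 shares 15.8% of its exon bases with a gene on the opposite strand.

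A list of other peptidases and related enzymes, not all of them lysosomal, moved in both directions. Of 12 tested, 2 were higher (Scpep1 and Rnpep) and 5 lower (Napsa, Prcp, Ace, Cpa3 and Asrgl1), with a median of -0.17. Over all tested genes, 22.7% were higher and 25.4% lower. Scpep1, a serine carboxypeptidase related to Ctsa, rose from 139, 158 and 159 CPM to 353, 358 and 399 CPM (edgeR adjusted p = 2.43e-05). Prcp, another of that family, fell 1.504-fold, and Cpa3, the carboxypeptidase of mast cells, 2.99-fold. Markers of mast cells and basophils fell in 7 of 7 tested cases, Cpa3 among them, with a summed level of 346 to 378 CPM with IFN-γ and 106 to 114 CPM with 4-OI, and their part was not tested.

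Of the other cathepsin genes of the mouse, 3 of 13 were tested. Ctsg, a serine protease of neutrophil and mast cell granules that Ctsc activates, fell from 6.37, 7.88 and 8.02 CPM to 2.66, 2.57 and 2.64 CPM (edgeR adjusted p = 7.16e-05). Ctso and Ctsf, further cysteine cathepsins, did not pass, at -0.027 and 0.018 on the log2 scale (edgeR adjusted p = 0.833 and 0.933). The 9 placental and related genes Ctsj, Ctsm, Ctsq, Ctsr, Cts3, Cts6, Cts7, Cts8 and Ctsll3 had no counts in any library.

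Partners and substrates of single cathepsins were higher in 4 and lower in 7 of 12 tested cases, with a median of -0.28. Ctsc did not pass, but granule genes on the list fell. Elane, the neutrophil elastase it activates, went from 12.5 ± 2.61 to 2.75 ± 0.773 CPM, and Mpo, myeloperoxidase of the same granules, fell 9.13-fold. Neutrophil markers, which include both, were lower for 9 of 14 genes and higher for 2, and had summed levels of 5839 to 7353 CPM and 5636 to 6471 CPM, and their part was not tested. Psap, the saposin precursor that Ctsd cuts, rose 1.46-fold from 7219 ± 503 CPM (edgeR adjusted p = 0.00440), and Neu1, the neuraminidase that Ctsa protects, 1.30-fold (edgeR adjusted p = 0.0283). Of the endosomal Toll-like receptors that cathepsins cleave, Tlr7 rose 1.84-fold and Tlr9 and Tlr3 fell 1.93-fold and 4.22-fold.

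Proton pumps acidify the compartment in which cathepsins work. Of 18 proton pump genes, 10 rose and 1, Atp6v0a1, fell, with a median of 0.36. Over all tested genes, 22.7% rose and 25.4% fell. Atp6v0b, a membrane subunit, went from 104, 146 and 134 CPM to 338, 339 and 368 CPM, while Atp6v0d2 and Atp6v1h were 2.37-fold and 2.40-fold higher. Of 19 genes that sort enzymes to lysosomes or form the lysosomal membrane, 9 rose and 5 fell, with a median of 0.22. Cln8, which carries lysosomal enzymes out of the endoplasmic reticulum, and Scarb2, a lysosomal membrane receptor, rose 2.04-fold and 1.77-fold. Igf2r, the large mannose 6-phosphate receptor that delivers cathepsins, fell from 85.7, 53.5 and 53.7 CPM to 21.8, 20.0 and 18.2 CPM.

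Among 11 genes of the MiT/TFE transcription factors and of the nutrient switch that controls them, 7 rose and 1 fell, with a median of 0.45. Rragd, a GTPase of that switch, rose from 6.25, 6.11 and 6.03 CPM to 30.4, 30.3 and 32.2 CPM (edgeR adjusted p = 1.96e-06). Tfe3 rose 1.40-fold (edgeR adjusted p = 0.00109), Mitf fell 1.28-fold (edgeR adjusted p = 0.0179), and Tfeb was at 17.6 and 17.2 CPM (log2 fold change -0.030; edgeR adjusted p = 0.848). The calls for Tfe3 and Mcoln1, the latter 1.41-fold higher, were lost with total-count scaling, and that for Mitf without any 1 of the 4-OI libraries.

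**Figure D5:**
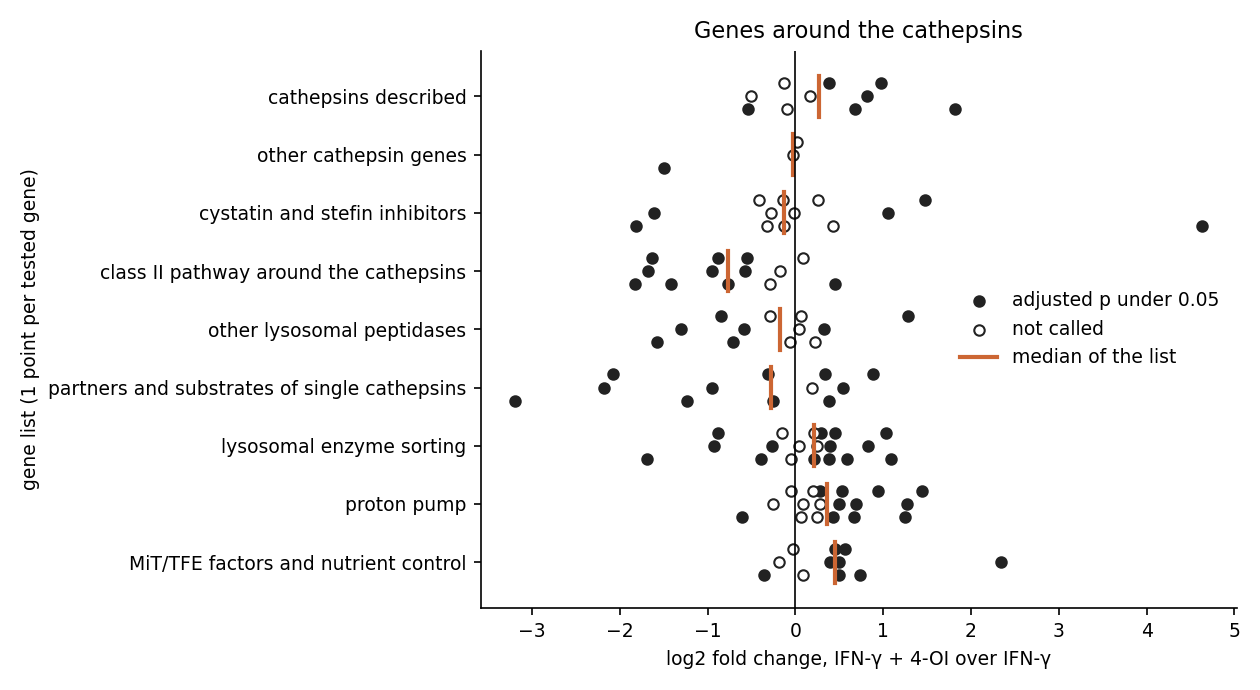
Log2 fold change with 4-OI of each tested gene in 9 lists, filled where the edgeR adjusted p is under 0.05, with a bar at the median of each list. The median of the class II list lies at -0.77 and those of the proton pump and MiT/TFE lists at 0.36 and 0.45, with the cathepsins at 0.27.

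As a description of pattern, the genes whose log2 CPM followed Ctsd most closely over the 6 libraries, among 8446 coding genes of at least 10 CPM, were Tpd52l2, Traf4 and Lsg1, each with a Pearson r of 0.999. For Ctsk they were Hccs, Klhl21 and Pum3, also at 0.999. With 2 groups of libraries any gene that separates them scores high, so the measure says little beyond the group difference.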

How the data were processed

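Per the labels' protocols, libraries were made with a stranded mRNA kit. The authors deposited 1 table per library with whole-number counts, TPM and FPKM for 36706 genes. HISAT2 and the build mm10 are named in the submitters' processing notes, while the program that counted reads, its use of strand and the annotation are not given here. The deposited TPM and FPKM were recomputed from counts and exon lengths and matched for 100% of values within a relative tolerance of 1e-06. Of 35272 genes matched by symbol to RefSeq's GRCm38 table, 23420 had the same length from start to end, and 827 the same start or end. Coordinates are therefore as deposited, except promoters (RefSeq, GRCm38.p6).

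Counts were fitted with edgeR 4.0.16 in R 4.3.3 over all genes (filterByExpr, minimum count 10; TMM factors; robust quasi-likelihood test; Benjamini-Hochberg adjusted p of 0.05). The SE is that of the fitted log2 fold change. The fit was tested on simulated data with few changed genes, higher and lower in nearly equal numbers. Many more genes were called here, so that test does not bear on the choice of scaling. Shares and ratios used deposited TPM with exact two-sided permutation tests. Total counts give 3 counts a level of 0.103 to 0.153 CPM, which covers counting error only. No replicates agreed within sampling noise (lowest chi-square per gene 4.34). Alternatives were other scaling factors and filters, DESeq2 1.42.0, limma-voom (limma 3.58.1), the replicate number as a block, and fits without libraries.

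The members, lists, motifs and tests were chosen with earlier results of these data known. Named genes are the members, the 3 of each list with the smallest adjusted p, a set of 9 (Cst3, Cstb, Cst7, Cd74, Ifi30, Lgmn, Tfeb, Tfe3, Mitf) and, after their values were seen, others that complete a count or act on a cathepsin. On the opposite strand, H2-DMa, Scpep1, Cpa3 and Atp6v0b share 2.50% to 7.71% of their exon bases with other genes, and Ctsz 0.833%. Marker genes are named to show levels. Listed symbols not analysed here are BC100530, BC117090, Pgcp, Lyset, Tpsab1 and Ighd.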

Additional observations from a re-analysis of the deposited data

How the results depend on the processing

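With total-count scaling 4 cathepsins were called higher and 4 lower (Ctsh with Ctsc, Ctse and Ctss), and over all genes 1719 were higher and 5452 lower against 3181 and 3555, so higher calls were 24.0% of calls against 47.2%. With that scaling log2 fold changes reversed for Ctsa (-0.089), Ctsf (-0.24) and Ifi30 (-0.17), none of them called. With both IFN-γ replicate 1 and 4-OI replicate 3 left out, 6 cathepsins and 4601 genes were higher and 3 cathepsins and 4695 genes lower, 9296 genes in all, with Ctsf at -0.12, Ifi30 at -0.15 and Tfeb at -0.16. Without single libraries 4 to 5 cathepsins were higher and 1 to 2 lower, the second being Ctse without IFN-γ replicate 2, and 5275 to 7835 genes were called. Log2 fold changes near 0 changed sign without single libraries, from -0.099 to 0.11 for Ctsf, -0.058 to 0.21 for Ifi30, -0.097 to 0.046 for Ctso and -0.11 to 0.088 for Tfeb; values that reversed include -0.021 and -0.015 for Ctsf, -0.0014 for Ifi30, 0.0016 for Ctso and 0.011 for Tfeb. Shares of cathepsin TPM and inhibitor ratios kept their direction when counts replaced TPM and without single libraries, but with counts the shares of Ctsa and Ctsc moved by -0.923 and -0.986 percentage points against -0.413 and -0.161. With the replicate number as a block, 5 cathepsins were higher and 1 lower, 7513 genes were called, and among the genes named Cst3 and Lgmn passed as lower (adjusted p = 0.0171 and 0.0228). Same-numbered libraries did not all deviate together (correlations 0.26, -0.10 and 0.19), so the numbers were not taken to pair them. The cause of these differences was not tested. Depth limits Ctse, Fetub and the stromal markers.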
